A study of Mus musculus with 2 samples.

Results

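mmu_piR_000691 is an annotated mouse piRNA of 26 nt, of which the first 25 are the 3′ end of 5S ribosomal RNA as annotated and the last is 1 base beyond it. It is 1 of 90 piRNAs with a read in this series, out of 39986 listed, and was chosen by its read count, the highest in both libraries. The RNA came from GC-1, a mouse spermatogonia line immortalised in culture, and was sequenced as small RNA. One library came from cells kept without the cyanobacterial phosphatase inhibitor microcystin-LR (MC-LR, 0 nM; control) and the other from cells given 500 nM for 24 h, both in serum-containing medium. With 1 library in each group, no test of the exposure was possible and the differences below are between 2 libraries. The tables used here hold piRNAs only, so the cell line was not checked against marker genes.

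5S rRNA is the smallest RNA of the large ribosomal subunit. RNA polymerase III makes it, stopping in a run of T residues, so that the new RNA ends in U residues that are then partly trimmed. Its first bases pair with its last bases in the folded molecule. piRNAs proper are RNAs of the germ line that PIWI proteins carry to silence transposons, and many begin with U. Small RNA libraries also catch fragments of abundant structural RNAs, and piRNA collections contain some of them. Binding to a PIWI protein was not measured here.

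The 5S gene Rn5s shows where the fragment lies. Its entry covers chr8:123598158-123598276 on the minus strand of GRCm38 (GENCODE M21) and has 119 nt, all of it 1 exon of an rRNA gene. The first 25 bases of mmu_piR_000691 are the last 25 of Rn5s, positions 95 to 119, at chr8:123598158-123598182. The same 25 bases end 56 of the 354 rRNA transcripts of the annotation, 32 of which equal Rn5s over their whole length. The last T of the fragment lies 1 base beyond the annotated end of these entries, at what would be position 120. The whole 26 nt were found in a single transcript, in the 3′ UTR (exon 6 of 6) of Tmem38b, which encodes an ion channel of the endoplasmic reticulum, at chr4:53860746-53860771 on the plus strand. That stretch is itself a 5S copy, identical to Rn5s at 114 of 119 positions (95.8%). A read that carries the last T therefore matches Tmem38b and not the annotated part of a 5S gene, and the bases past the annotated 5S ends were not analysed here. Reads from these sources cannot be told apart by such a match. No annotated transcript held the fragment in antisense.

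Every read falls into 1 of 10 forms, named by the nt missing at the 5′ and at the 3′ end (5′/3′). The capitals mark the 20 bases that all forms share, and the lower-case letters are the ends that vary. The forms are printed because the results turn on which of these end bases are present:

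0/0: ctgGGAATACCGGGTGCTGTAGGctt

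1/0: tgGGAATACCGGGTGCTGTAGGctt

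2/0: gGGAATACCGGGTGCTGTAGGctt

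3/0: GGAATACCGGGTGCTGTAGGctt

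0/1: ctgGGAATACCGGGTGCTGTAGGct

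1/1: tgGGAATACCGGGTGCTGTAGGct

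2/1: gGGAATACCGGGTGCTGTAGGct

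0/2: ctgGGAATACCGGGTGCTGTAGGc

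1/2: tgGGAATACCGGGTGCTGTAGGc

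0/3: ctgGGAATACCGGGTGCTGTAGG

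These 10 are all the forms that can lack 0 to 3 nt in all, the range found in the tag tables, and each was present in both libraries. Shorter, longer and mismatched forms were not measured. None of the 10 sequences fits any of the other 89 detected piRNAs. The longest run shared with another one is 8 nt, so 0 of them share 12 nt with the fragment.

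Nearly all reads of the fragment began inside its annotated 5′ end, and most kept its 3′ end. The library of control cells held 213759 of its reads and the MC-LR library 328756. Reads lacking at least 1 nt at the 5′ end made up 98.9% of them without MC-LR (95% exact interval 98.8 to 98.9) and 99.0% with it (99.0 to 99.1). Reads lacking at least 1 nt at the 3′ end made up 3.62% (3.54 to 3.70) and 3.36% (3.30 to 3.43). The labels name no molecular identifiers, so a molecule copied by PCR may count more than once, and all intervals cover counting error only.

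By number of reads, form 3/0 led with 159779 control and 248065 MC-LR reads. Form 2/0 followed with 34700 and 54526, and form 1/0 with 9229 and 12062. The annotated sequence itself, form 0/0, had 2318 and 3045. The order of these forms was the same in both libraries, from the shortest down to the annotated one.

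Of the forms without the last base, 2/1 had 6048 control and 8664 MC-LR reads. Form 1/1 had 1557 and 2190 reads, and form 0/1 had 101 and 175. Loss of more than 1 base at the 3′ end was rare at every start where it could be listed. Form 1/2 had 20 and 18 reads, form 0/2 had 5 and 1, and form 0/3 had 2 and 10, so that differences among them rest on a few reads. For form 0/3 the ratio of shares, MC-LR over control, was 3.25 with an interval of 0.712 to 14.8, and for form 0/2 it was 0.130 (0.0152 to 1.11).

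**Figure D1:**
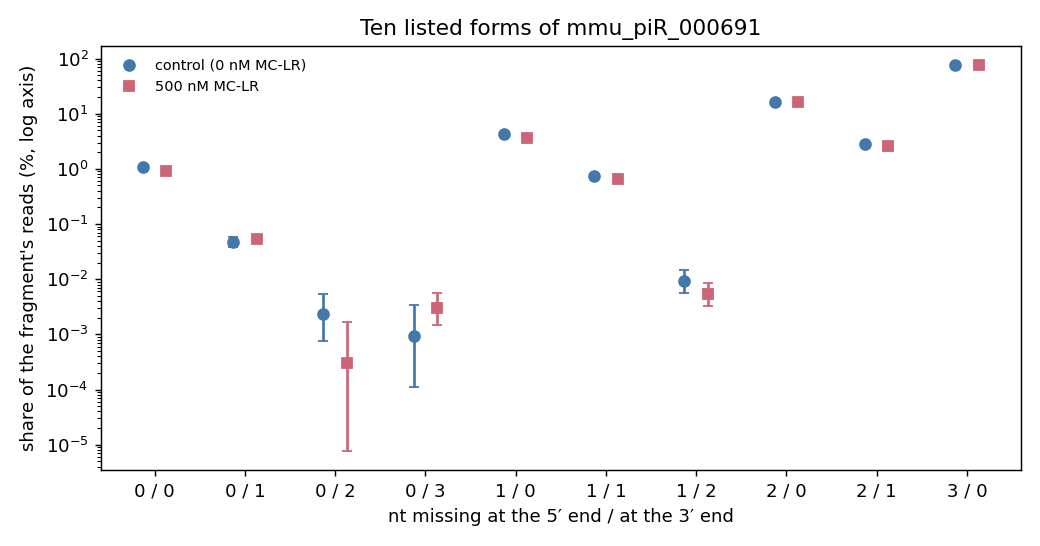
Share of the reads of mmu_piR_000691 in each of its 10 forms (percent, log axis), by nt missing at the 5′ and at the 3′ end, in the control library (circles) and the 500 nM MC-LR library (squares); bars are 95% exact binomial intervals. Among forms with a complete 3′ end the share climbs from 1.08% (0/0) to 74.7% (3/0) in the control and from 0.926% to 75.5% with MC-LR, while forms lacking 2 or 3 nt at the 3′ end stay below 0.01%.

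At the 5′ end, each start 1 base further into the RNA held several times as many reads as the one before. In Rn5s numbering the starts are positions 95, 96, 97 and 98. Among reads with a complete 3′ end, form 1/0 outnumbered form 0/0 by 3.98 times in the control (3.80 to 4.17) and by 3.96 times after MC-LR (3.81 to 4.12). The step from 1/0 to 2/0 was 3.76 (3.67 to 3.85) and 4.52 (4.43 to 4.61). The step from 2/0 to 3/0 was 4.60 (4.55 to 4.66) and 4.55 (4.51 to 4.59). The series of starts thus still climbed at the last one listed. Whether it goes on past position 98 was not measured, because no tag of any piRNA was listed with more than 3 nt missing in all.

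Between the libraries, only the middle of these 3 steps had an interval of the ratio that leaves out 1. MC-LR over control, that step was 1.20 times as large (1.17 to 1.24). The first step differed by 0.995 times (0.937 to 1.06) and the last by 0.988 times (0.973 to 1.003). The same middle step read from the forms without the last base, 1/1 to 2/1, was 3.88 (3.67 to 4.11) in the control and 3.96 (3.77 to 4.15) with MC-LR, a ratio of 1.02 (0.947 to 1.10). The ratio for reads with a complete 3′ end was 1.18 times that for reads lacking the last base (1.09 to 1.28). The difference between the libraries at that step was thus larger among reads that keep the last base.

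**Figure D2:**
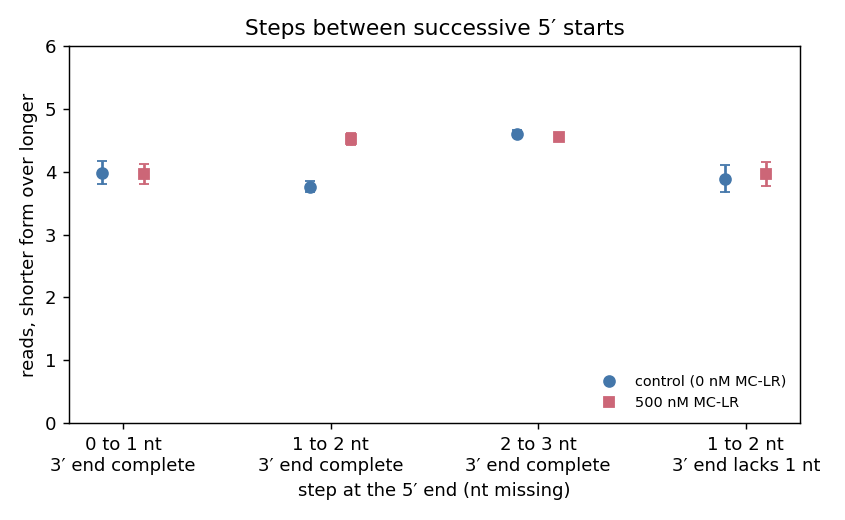
Number of reads of a shorter form per read of the form 1 nt longer at the 5′ end (linear axis from 0), for the 3 steps among reads with a complete 3′ end and for the 1 to 2 nt step among reads lacking 1 nt at the 3′ end; circles are the control, squares 500 nM MC-LR, bars 95% exact intervals. The libraries stand apart at the 1 to 2 nt step with a complete 3′ end, 3.76 against 4.52; the 0 to 1 nt step without the last base, 15.4 and 12.5, is not drawn.

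In shares of all listed reads of the fragment, each start differed by less than 1 point between the libraries. Starts at the annotated first base made up 1.13% of control and 0.983% of MC-LR reads, a difference of -0.152 points (-0.209 to -0.0963). Starts 1 base in made up 5.06% and 4.34%, a difference of -0.715 points (-0.831 to -0.599). Starts 2 bases in made up 19.1% and 19.2%, a difference of 0.158 points whose interval includes 0 (-0.0560 to 0.372); among reads with a complete 3′ end it was 0.320 points (0.112 to 0.528). Starts 3 bases in made up 74.7% and 75.5%, a difference of 0.708 points (0.473 to 0.944). The MC-LR library was thus lower at the outer starts and higher at the innermost one. These sizes depend on the shortest length listed: without reads of 23 nt, starts 1 base in differed by -2.72 points (-3.19 to -2.25) and starts 2 bases in by 3.30 points (2.80 to 3.81). On average 2.67 nt were missing at the 5′ end in the control and 2.69 nt in the MC-LR library, a difference of 0.0173 nt (0.0139 to 0.0206). Summed over the forms with a larger share in the MC-LR library, the 2 profiles differed by 1.07 points (0.917 to 1.22). Those forms were picked from these same counts, so the sum is biased upward and its interval ignores the choice.

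The 3′ end lay at the last T of the annotated fragment in 96.4% of listed control reads and 96.6% of listed MC-LR reads. These shares are set in part by the range of lengths listed, and ends past this T were not measured. A read that starts 3 bases in is only listed with a complete 3′ end, and such reads are most of the total. Among the starts for which both a complete end and a loss of 1 base could be listed, 14.3% (14.0 to 14.6) lacked the last base in the control and 13.7% (13.4 to 13.9) after MC-LR. These reads end at position 119, the last base of the annotated 5S entries.

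Loss of the last base depended on the start. Of reads that begin at the annotated first base, 4.18% (3.41 to 5.05) lacked it in the control and 5.43% (4.68 to 6.27) after MC-LR. For starts 1 base in the shares were 14.4% (13.8 to 15.1) and 15.4% (14.8 to 16.0). For starts 2 bases in they were 14.8% (14.5 to 15.2) and 13.7% (13.4 to 14.0). Reads with a complete 5′ end thus kept the last base more often than either of the shortened starts, in both libraries.

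As odds, reads starting 1 base in were 3.87 times as likely as those with a complete 5′ end to lack the last base in the control (3.15 to 4.76), and 3.16 times (2.69 to 3.70) with MC-LR. The ratio of these odds ratios, MC-LR over control, was 0.816, and its interval includes 1 (0.629 to 1.06). For reads starting 2 bases in, again against a complete 5′ end, the odds ratios were 4.0 (3.27 to 4.89) and 2.76 (2.37 to 3.23), and their ratio of 0.691 has an interval below 1 (0.537 to 0.890). Starts 2 bases in against 1 base in gave 1.03 (0.973 to 1.10) in the control and 0.875 (0.832 to 0.921) with MC-LR. Both values, and the differences in loss at these starts given below, rest on the same forms as the step from 1 to 2 bases in described above. They are no separate result. The difference between the libraries turned with the start. Loss of the last base was 1.26 points higher in the MC-LR library at the annotated start (0.121 to 2.37) and 0.931 points higher 1 base in (0.0385 to 1.82). At 2 bases in it was lower there, with a difference of -1.13 points (-1.57 to -0.696).

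**Figure D3:**
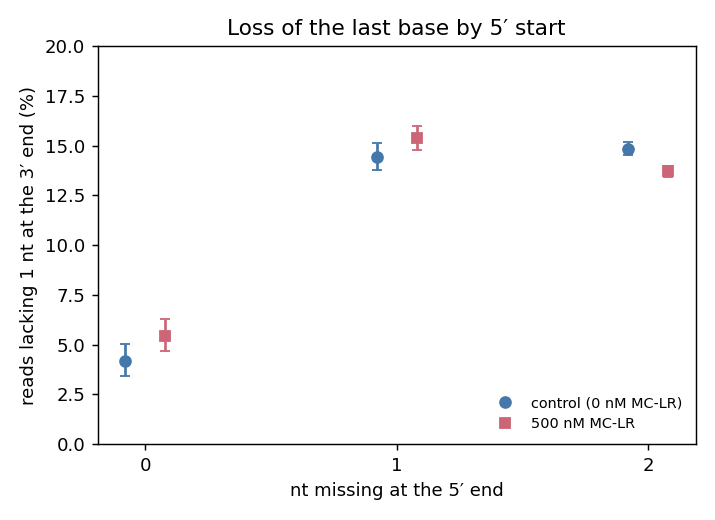
Reads of mmu_piR_000691 that lack 1 nt at the 3′ end, as a percent of those lacking 0 or 1 nt there (linear axis from 0), by nt missing at the 5′ end; circles are the control, squares 500 nM MC-LR, bars 95% exact intervals. Both libraries lie near 5% at the annotated start and between 13% and 16% at the shortened starts, with MC-LR above the control at 0 and 1 nt and below it at 2 nt.

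The start decides the bases by which piRNA classes are recognised. Forms that begin 1 base in start with T, U in the RNA, the first base typical of primary piRNAs, and they made up 5.06% (4.96 to 5.15) in the control and 4.34% (4.27 to 4.41) after MC-LR. Forms that begin 2 or 3 bases in start with G, with 93.8% (93.7 to 93.9) and 94.7% (94.6 to 94.8) of the reads. The annotated first base is C, carried by 1.13% and 0.983%. None of the 10 forms has A at position 10, a mark of ping-pong piRNAs: that position holds C in forms that begin 0 or 1 base in and G in the others. By length, 23-nt reads made up 77.6% (77.4 to 77.8) in the control and 78.1% (78.0 to 78.2) after MC-LR, and 24-nt reads 17.0% and 17.3%. Reads of 25 nt made up 4.36% and 3.72%, a difference of -0.643 points (-0.751 to -0.535).

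Against the other 9 of the 10 most abundant piRNAs, the fragment had the lowest share of reads at its commonest 5′ start. Its commonest start held 74.7% and 75.5% of its reads, while in each of the 9 others a single start held 91.9% to 100% of control and 91.1% to 100% of MC-LR reads. The nearest was mmu_piR_000935, within the Y RNA Rny1, a small RNA of Ro ribonucleoprotein particles. Against it the share of the commonest start was lower in the 5S fragment, with a difference of -17.2 points in the control (-18.7 to -15.3) and -15.7 points with MC-LR (-17.3 to -13.8). Of the 9, 8 had fewer than 10% of their reads shortened at the 5′ end in each library. Among the 15 other piRNAs with at least 100 reads in both libraries, 4 had a smaller share at their commonest start in both, named here after their values were seen. They were mmu_piR_002643 (49.0% and 45.3%), mmu_piR_005109 (67.3% and 58.6%), mmu_piR_000818 (69.2% and 55.9%, with a control interval of 60.5 to 77.0 that holds the value of the fragment) and mmu_piR_039147 (68.5% and 72.6%, with an MC-LR interval of 66.4 to 78.3 that does so too). Shortening at the 5′ end was common in these 4 as well, in both libraries. It reached 85.6% and 85.8% of reads in mmu_piR_002643 and 69.2% and 62.1% in mmu_piR_000818. In mmu_piR_039147 it was 68.5% and 72.6%, and in mmu_piR_005109 32.7% and 41.4%.

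Among the 9 other abundant piRNAs, the exception was mmu_piR_004086, within Snord57, a small nucleolar RNA in Nop56. Of its reads, 99.4% of 3329 in the control and 99.1% of 3610 with MC-LR were shortened at the 5′ end. There a single start, 1 base in, held 99.2% and 98.7% of the reads, in contrast to the stepwise starts of the 5S fragment. The share shortened was slightly lower in the 5S fragment, with a difference of -0.564 points in the control (-0.774 to -0.242). With MC-LR the interval of that difference, -0.0410 points, included 0 (-0.310 to 0.332). The fragments of the miRNA hairpins Mir532, Mir744 and Mir1839 (mmu_piR_025576, mmu_piR_017405 and mmu_piR_028252) had the opposite pattern. In the control their reads were shortened at the 3′ end in 58.8%, 77.0% and 73.3% of cases and at the 5′ end in 0.0922%, 0.269% and 0%. In the last of these, 0 of 535 reads were shortened at the 5′ end, with an exact upper limit of 0.687%. That piRNA, mmu_piR_028252, also matched entries annotated as scaRNA (small Cajal body RNA) and lincRNA (long intergenic RNA). The pattern was not limited to hairpins: mmu_piR_000580 had 83.5% of control reads shortened at the 3′ end and 0.260% at the 5′ end. The 3′ share of the 5S fragment is not a like measure, since its reads that start 3 bases in are listed only with a complete 3′ end. Among its starts where a loss of 1 base could be listed, 14.3% of control reads lacked the last base.

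The shortest length that the listed range allows, 3 nt under the annotated length, held a larger share of the fragment's reads than in 8 of the 9 other abundant piRNAs. The comparison was made for these 9 only. In the fragment this length took 77.6% of control and 78.1% of MC-LR reads, against a median of 0.539% and 0.586% among the 9 others. Only mmu_piR_000580, which matched no annotated transcript, was higher, with 82.1% and 84.4%, and its shortening lay at the 3′ end, with form 0/3 as the commonest.

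**Figure D4:**
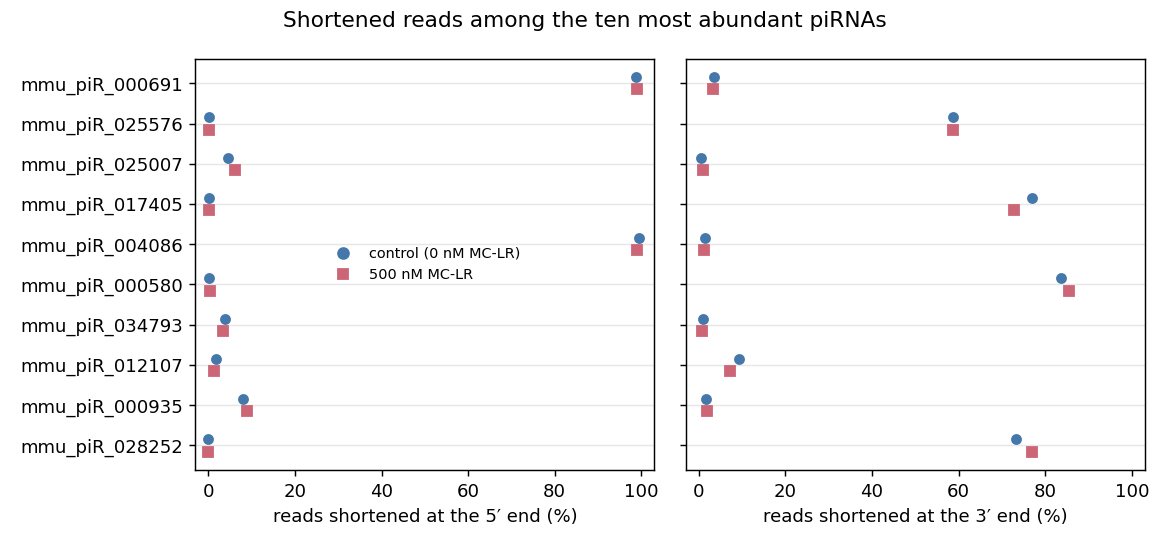
Reads shortened by at least 1 nt at the 5′ end (left) and at the 3′ end (right), in percent of the reads of each of the 10 most abundant piRNAs, in the control (circles) and the 500 nM MC-LR library (squares). mmu_piR_000691 lies at 98.9% and 99.0% on the left and at 3.62% and 3.36% on the right. Its right-hand values are set in part by the lengths listed, since its reads that start 3 bases in are listed only with a complete 3′ end. mmu_piR_004086 is the other piRNA near 99% on the left, and the remaining 8 lie below 10% there.

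Small shifts of the ends between the libraries were found for other piRNAs too. Among the 16 piRNAs with at least 100 reads in both libraries, the share shortened at the 5′ end differed with an interval that excludes 0 in 4, the 5S fragment included, or 25%. At the 3′ end it did so in 5, again with the 5S fragment, or 31.2%. The fragment's own differences were 0.152 points (0.0963 to 0.209) at the 5′ end and -0.254 points (-0.355 to -0.154) at the 3′ end. The 3′ difference was no longer called without reads of the shortest length: the share with a complete 3′ end then differed by 0.185 points, with an interval that includes 0 (-0.0231 to 0.396). Of the 15 others, 13 had a larger difference at the 5′ end and 10 at the 3′ end, over a range from -7.16 to 8.76 and from -12.1 to 3.66 points. This measure counts loss of any number of nt. Nearly all of the fragment's reads had such a loss at the 5′ end and few at the 3′ end. The share shortened could thus rise little at the 5′ end and fall little at the 3′ end, but was free to move the other way. Whether this bears on the size of its differences was not tested. Shifts among its shortened starts are not counted, such as the -0.715 points at starts 1 base in. With far more reads than any other piRNA, the fragment resolves differences that would fall inside the intervals of the others. The summed difference between its 2 profiles was 1.07 points, and among the 9 other abundant piRNAs it ran from 0.519 to 5.38 points. This sum grows with counting noise where reads are few. Its intervals treat the forms summed as fixed, although these were picked from the same counts, so the sorting that follows is approximate. The interval lay above 1.07 points for 2 of the 9, mmu_piR_025007 (1.43 to 3.27) and mmu_piR_017405 (2.50 to 6.15), and below it for mmu_piR_004086 (0.0286 to 1.02). It held that value for the other 6.

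The level of the fragment, by which it was chosen, is given as a description. It took 87.6% of the 244066 piRNA reads of the control and 91.4% of the 359871 of the MC-LR library. Scaled to all piRNA reads the ratio, MC-LR over control, was 1.04 (1.04 to 1.05). The fragment makes up most of the total used in that scaling, so that ratio could rise only a little however much the level rose. Scaled to the 30307 and 31115 piRNA reads outside the fragment the ratio was 1.498 (1.47 to 1.52). The shares of forms and ends above are taken within the fragment and do not depend on this choice.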

How the data were processed

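Libraries for Illumina sequencing were made from TRIzol-extracted RNA, per the labels' protocols. The deposited values are read counts, made by the authors: 1 table per library lists counts per piRNA and 1 lists counts per distinct sequence (tag) with its piRNA. The submitters' processing notes give the build as mm8; how reads were trimmed and aligned, and to which piRNA collection, is not given in the sources used. The tag counts added up to the piRNA counts, with 0 disagreements, and each tag fitted its piRNA at 1 place.

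Each tag of mmu_piR_000691 was placed in the annotated sequence and its missing nt were counted at each end. Shares carry 95% Clopper-Pearson intervals. Differences between shares carry Newcombe intervals, ratios of counts and odds ratios log-scale or exact ones, and mean differences normal ones. A shift across piRNAs was called where the Newcombe interval excluded 0, with at least 100 reads in both libraries, and was not adjusted for the number of piRNAs. The placing and the call were tested on simulated data with shifts far larger than those of the fragment, so shifts as small as its own were not covered. The piRNAs planned for naming were mmu_piR_000691, the other 9 of the 10 most abundant by mean share of piRNA reads, and any sharing 12 nt with it. Another 4, with a smaller share at their commonest start, were named after their values were seen. Members, lists and tests were chosen with earlier results of these data known. Sequences were matched exactly to GENCODE M21 transcripts (GRCm38), which is not the authors' build. Rn5s with the fragment's last base added was folded with RNAfold 2.7.2. edgeR 4.0.16 TMM and DESeq2 1.42.0 size factors served for the level only. Other software was Python 3.11.15, scipy 1.17.1, statsmodels 0.14.6 and R 4.3.3.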

Additional observations from a re-analysis of the deposited data

How the results depend on the processing

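No paired analysis was possible because there is a single library per group. The difference in mean nt missing at the 5′ end, 0.0173 nt, became 0.0389 nt without reads of the shortest listed length. Counting each tag once gave 0 at both ends, since both libraries hold all 10 forms. At the 3′ end the difference of -0.0026 nt reversed to 0.0158 nt among reads with a complete 5′ end, where the complete share differed by -1.30 points and loss of 1 nt by 1.25 points. Over starts of 0 to 2 nt and ends of 0 or 1 nt missing, an alternative chosen after seeing the data, it was -0.0061 nt. The summed difference between the profiles, 1.07 points, was 3.34 points without the shortest length and 3.33 points without form 3/0; both remove most reads. The level ratio of 1.04 was 1.498 against the reads outside the fragment, 1.37 with TMM and 1.36 with DESeq2 size factors. The other 14 alternatives of these summary values stayed within the interval or within 1.5 times the count, but without the shortest length the interval of the 3′ difference included 0 (-0.0040 to 0.00016 nt). Of 40 alternatives for shares of single end classes, 25 stayed within the interval, 13 moved and 2 reversed, both given above. Many that stayed, here and among the summary values, could hardly have moved. Leaving out tags that fit another piRNA removed 0 tags. Leaving out tags with fewer than 10 reads removed only forms with a few reads. These counts are therefore no measure of how stable the results are. Reads of the fragment under 23 nt, a genome sequence and further cultures were not analysed here, which limits what the ends can show.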

Other observations

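In the minimum-energy fold predicted for Rn5s with the fragment's last base added (120 nt, -50.5 kcal/mol), 19 of the fragment's 26 bases are paired. Bases 1 to 9 of the RNA pair with 110 to 118, so that the 2 bases at which nearly all listed reads end, 119 and 120, are unpaired. The starts at 95, 97 and 98 are predicted as paired, with 81, 79 and 78, and the start at 96 as unpaired. Position 98 closes a short helix, with positions 99 to 102 unpaired behind it. This is a prediction for the naked RNA, without ribosomal proteins, and its relation to the ends was not tested.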
